A study of Mus musculus with 12 samples.

Results

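The collagen genes of the hippocampal arrays are described here, with the fibrillar collagens of the meninges and vessel walls set against the collagens of basement membranes. A gene was included when the name given to a non-control probe in the array files is Col, a number, a and a number, and names ending in os, which mark opposite-strand transcripts, were left out. By this rule 44 of 29608 genes were collagens, and they were read by 70 of 39429 probes and 79 of 43020 spots. *Col1a1*, *Col1a2*, *Col3a1*, *Col5a1*, *Col5a2* and *Col5a3* formed the fibrillar class of 6 genes, and *Col4a1* to *Col4a6* with *Col18a1* formed the basement membrane class of 7 genes.

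The data come from 12 female mice, 4 per phenotype, killed at about 12 weeks of age, whose RNA was hybridized to 6 Agilent arrays carrying 60-base probes. MRL/lpr mice carry the lpr loss-of-function allele of *Fas* on the MRL background and develop a lupus-like disease. Fn14ko mice, labelled Fn14koMRL, were littermates from a backcross of the knockout of *Tnfrsf12a* (the TWEAK receptor Fn14) onto MRL/lpr, so they share the *Fas* allele with that group. MRL/+ mice, labelled MRL/MpJ, have intact *Fas* and came from another supplier, so breeding colony and phenotype cannot be told apart in comparisons with them. The alleles are constitutional, with no promoter or cell type restricting them. RNA of each mouse was amplified, labelled and measured on its own. An array was shared by 2 mice of 1 phenotype, with replicates 1 and 3 labelled in Cy3 and replicates 2 and 4 in Cy5. Both arrays of a phenotype lay on 1 slide, so slide and phenotype cannot be told apart. The source and tissue labels give the hippocampus for all mice, whereas the free-text description also mentions the cortex.

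Collagens are triple-helical proteins of the extracellular matrix, in which glycine recurs at a fixed spacing along each chain. Types I, III and V assemble into banded fibrils and are made by fibroblasts of the pia, arachnoid and dura and of the sheaths around larger vessels. Type IV forms the sheet-like network of basement membranes under endothelium, around pericytes and at the glial surface, and type XVIII is a heparan sulfate proteoglycan of the same layers. Brain parenchyma holds few fibril-forming cells, so dissected tissue takes its fibrillar collagen messages mainly from attached meninges and large vessels, whereas the *Col4a1* and *Col4a2* messages come from the whole microvascular bed. In bulk RNA, fewer cells of a type and less RNA per cell cannot be told apart.

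The repeating glycine codons of the triple helix could be read in the array itself. Of the 70 collagen probes, 2 carried the letters GGN at 6 positions spaced 9 bases apart, which is 2.86%, compared with 0.0102% of 39359 other probes. They are shown because they display the glycine repeat that defines the family, and because *Col25a1* is 1 of the 3 genes past the threshold below. The *Col25a1* probe lies at chr3:130270497-130270556 of mm9 on the plus strand, and the *Col15a1* probe at chr4:47283786-47283845 of mm9 on the plus strand. Capitals mark the glycine codons GGN.
Col25a1: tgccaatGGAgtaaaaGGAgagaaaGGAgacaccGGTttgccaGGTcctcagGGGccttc
Col15a1: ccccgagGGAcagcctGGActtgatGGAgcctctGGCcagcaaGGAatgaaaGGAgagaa

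Promoter sequences, from RefSeq on GRCm38.p6, were listed for 35 of the 44 genes and for 10 of the 13 fibrillar and basement membrane members. The windows of *Col1a2* and *Col3a1* are shown because the levels of these genes moved together over the 8 channels called strong below (Pearson's r = 0.932, log2 scale). Without MRL/lpr replicate 1 the value was 0.423, so the likeness rested largely on that mouse. Each window holds the 250 bases before the start, at chr6:4505368-4505617 for *Col1a2* and at chr1:45311288-45311537 for *Col3a1*, both on the plus strand. Capitals mark CCAAT in *Col1a2* and TATAAA in *Col3a1*, and both motifs were searched on both strands.
Col1a2: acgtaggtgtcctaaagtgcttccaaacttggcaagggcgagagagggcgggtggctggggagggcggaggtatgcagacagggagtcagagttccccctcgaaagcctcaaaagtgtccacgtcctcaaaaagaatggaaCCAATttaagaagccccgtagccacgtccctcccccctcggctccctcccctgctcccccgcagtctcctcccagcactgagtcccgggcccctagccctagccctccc
Col3a1: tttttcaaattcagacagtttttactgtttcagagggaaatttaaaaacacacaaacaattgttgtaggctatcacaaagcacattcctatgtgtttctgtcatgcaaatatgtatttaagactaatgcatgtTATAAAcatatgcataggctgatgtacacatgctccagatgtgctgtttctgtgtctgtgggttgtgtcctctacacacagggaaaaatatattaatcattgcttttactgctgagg

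The CCAAT letters were found in 1 place in *Col1a2* and in none in *Col3a1*, and the TATAAA letters in 1 place in *Col3a1* and in none in *Col1a2*. In windows of the same length, CCAAT was held by 13 of the 38 promoters listed for these collagens (34.2%) and by 33.8% of all 32851 promoters. TATAAA was held by 5 of 38 (13.2%) and by 12.4%. The collagen promoters were therefore close to the background for both motifs, and a match describes letters only. *Col4a1* and *Col4a2*, whose protein chains assemble into the common type IV network, are transcribed in opposite directions from starts that overlap, *Col4a2* on the plus strand from position 11312805 and *Col4a1* on the minus strand from position 11312826 of chromosome 8. The stretch between the starts, at chr8:11312805-11312826, is shown for this shared start region.
Col4a1 and Col4a2: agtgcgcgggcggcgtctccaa

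Levels are background-subtracted signals in multiples of the channel median, which was taken over the 10877 spots valid in all 12 samples, and signals under 1% of that median (a level of 0.01) were set to it. Signal differed between channels. The array of MRL/lpr replicates 3 and 4 was weak, with 25.2% and 19.6% of spots well above background, and so were the Cy5 channels of MRL/+ replicates 2 and 4, with 29.6% and 31.8%. In the other 8 channels, called strong below, 51.5% to 68.1% of spots were well above background. Negative-control spots had median levels of 0.0721 and 0.341 in MRL/lpr replicates 3 and 4 and 0.255 and 0.187 in MRL/+ replicates 2 and 4, compared with at most 0.0275 in the strong channels. Signal of *Tnfrsf12a*, the knocked-out gene, was called well above background for 4 of 4 mice labelled Fn14ko, with levels of 0.177, 0.160, 0.189 and 0.151, below the other 8 mice at 0.241 to 0.629, and the deletion relative to the probe was not analysed here, so the group is called by its label. Among markers of hippocampal neurons, *Prox1*, the dentate granule cell factor, had a level of 0.01 to 0.0237 in Fn14ko. It was at 0.0200 and 0.0188 in the strong MRL/+ channels, compared with 0.177 and 0.157 in the strong MRL/lpr channels. *Dsp* had 0.0103 to 0.0135, 0.01 in both, and 0.264 and 0.213. On the weak array *Prox1* was at 1.08 and 1.60 and *Dsp* at 1.45 and 1.72, beside negative-control 95th percentiles of 1.51 and 2.55. These 2 genes were thus near the floor in the strong channels of Fn14ko and MRL/+, whereas others of the 12 neuron markers were high in the same channels, *Wfs1* at 4.10 to 6.93 in Fn14ko and at 4.30 and 3.43 in MRL/+, and *Neurod2* at 3.17 to 4.60 and at 4.39 and 4.27.

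Detection of the collagens followed these differences. Of the 44 genes, 24 were well above background in all 8 strong channels, including 5 of 6 fibrillar and 5 of 7 basement membrane members. *Col4a1* and *Col11a2* were well above background in all 12 samples, and *Col4a3*, *Col6a6* and *Col28a1* in none. Per sample, 35, 31, 10 and 10 collagens were detected by this call in MRL/lpr, 35, 28, 37 and 25 in Fn14ko, and 37, 7, 37 and 8 in MRL/+. The lowest counts were those of the 4 weak channels. In MRL/lpr replicates 3 and 4, 43 of 44 collagen levels lay at or below the 95th percentile of the negative controls, with 87.6% and 91.7% of all genes, so levels there are bounded by background rather than measured in full. The same count was 36 and 34 of 44 in MRL/+ replicates 2 and 4. In the strong channels it was at most 29, in MRL/lpr replicate 2, with 56.1% of all genes.

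Among the fibrillar collagens, the chains of types I and III were highest in a single mouse. *Col1a2*, the second chain of type I collagen, had levels of 2.19, 0.672, 0.325 and 0.977 in MRL/lpr replicates 1 to 4, of 0.650, 0.536, 0.510 and 0.690 in Fn14ko and of 0.553, 0.259, 0.435 and 0.209 in MRL/+. The means were 1.04 ± 0.810, 0.597 ± 0.0870 and 0.364 ± 0.159 (SD, n = 4). MRL/lpr replicate 1 was the highest of the 12 mice, and replicate 4, on the weak array, was also above every Fn14ko and MRL/+ mouse. Replicate 2 was above every MRL/+ mouse and within the range of Fn14ko, and replicate 3 was below every Fn14ko mouse and within the range of MRL/+. The log2 difference was 1.29 ± 0.47 (SE) for MRL/lpr against MRL/+ (limma, adjusted p = 0.148), 0.48 ± 0.47 for MRL/lpr against Fn14ko (adjusted p = 0.385) and 0.81 ± 0.47 for Fn14ko against MRL/+ (adjusted p = 0.421). None passed the threshold of an adjusted p of 0.05.

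*Col1a1*, the main chain of type I collagen, had levels of 0.758, 0.241, 0.0980 and 0.177 in MRL/lpr, of 0.265, 0.241, 0.189 and 0.286 in Fn14ko and of 0.175, 0.252, 0.143 and 0.230 in MRL/+. Again only MRL/lpr replicate 1 stood apart, and the other 11 levels ran from 0.0980 to 0.286. The log2 difference was 0.28 ± 0.50 (SE) against MRL/+ and -0.03 ± 0.50 against Fn14ko, so the group difference was within its error. *Col3a1*, the chain of type III collagen, which is laid down with type I in vessel walls, had levels of 0.630, 0.186, 0.0773 and 0.212 in MRL/lpr, of 0.135, 0.130, 0.115 and 0.146 in Fn14ko and of 0.0857, 0.261, 0.136 and 0.216 in MRL/+. Its log2 difference was 0.39 ± 0.54 (SE) against MRL/+ and 0.67 ± 0.54 against Fn14ko.

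The type V chains, which start and limit the width of type I fibrils, did not share the peak of replicate 1. *Col5a1* was at 0.105, 0.0755, 0.0591 and 0.214 in MRL/lpr, at 0.0612, 0.0740, 0.163 and 0.0731 in Fn14ko and at 0.0552, 0.162, 0.0640 and 0.131 in MRL/+. Here the high mouse of Fn14ko was replicate 3, and the high MRL/+ mice were those of the weak channels. *Col5a3* ran from 0.103 to 0.363 in MRL/lpr, from 0.0734 to 0.113 in Fn14ko and from 0.0282 to 0.266 in MRL/+. *Col5a2* was well above background in MRL/lpr replicate 1 alone, at a level of 0.0255. Its level was 0.0240, 0.0797 and 0.184 in the other MRL/lpr mice, and it ran from 0.01 to 0.0121 in Fn14ko and from 0.01 to 0.0811 in MRL/+. The 2 highest levels were those of the weak array and were not well above background, so no fold is given.

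**Figure D1:**
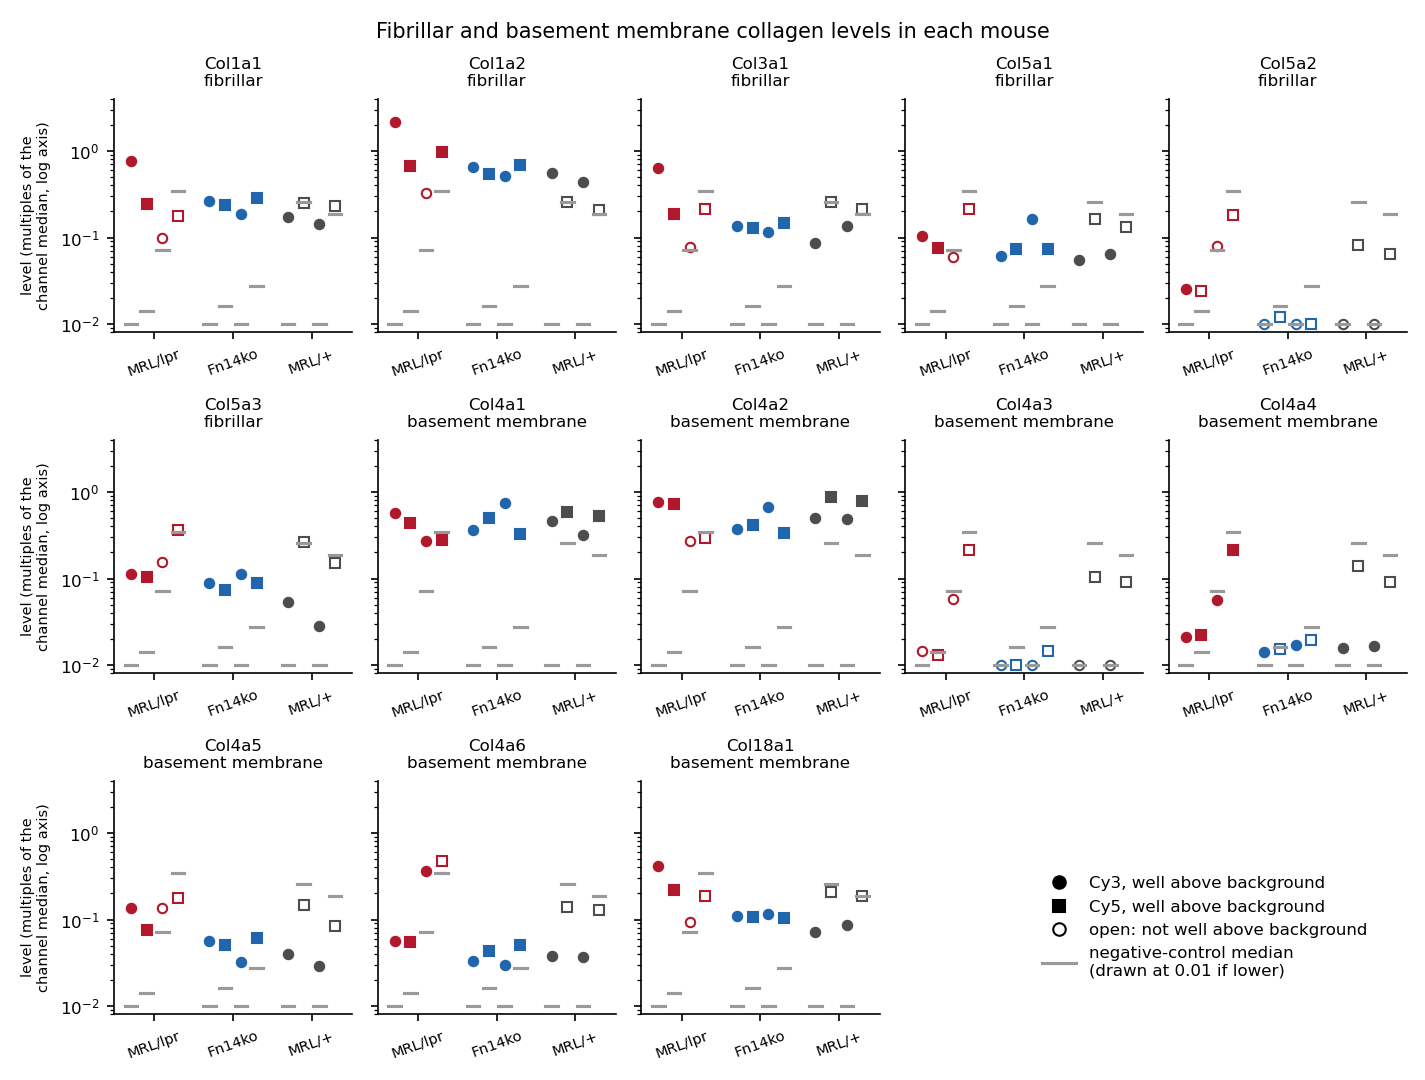
Level of the 13 fibrillar and basement membrane collagen genes in each of the 12 mice, by phenotype, in multiples of the channel median on a log axis; circles are Cy3, squares are Cy5, filled symbols are well above background, and short grey bars mark each channel's negative-control median, drawn at 0.01 where it is lower. MRL/lpr replicate 1 is the highest point for *Col1a1* (0.758), *Col1a2* (2.19), *Col3a1* (0.630) and *Col18a1* (0.411), whereas the *Col4a1* levels of the 3 groups overlap.

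In the basement membrane class, the major type IV chains overlapped between all phenotypes. *Col4a1* was at 0.576, 0.437, 0.271 and 0.276 in MRL/lpr, at 0.367, 0.5, 0.744 and 0.325 in Fn14ko and at 0.464, 0.592, 0.320 and 0.531 in MRL/+, with means of 0.390 ± 0.146, 0.484 ± 0.189 and 0.477 ± 0.117 (SD, n = 4). *Col4a2*, its partner chain, was at 0.769, 0.731, 0.270 and 0.290 in MRL/lpr, at 0.375, 0.411, 0.677 and 0.340 in Fn14ko and at 0.5, 0.871, 0.491 and 0.787 in MRL/+. For both genes the 2 mice of the weak array had the lowest levels of their group. The log2 differences of *Col4a1* were -0.33 ± 0.35 (SE) against MRL/+ and -0.31 ± 0.35 against Fn14ko, and those of *Col4a2* were -0.48 ± 0.39 and 0.08 ± 0.39. The levels of this pair, which share a start region, correlated with Pearson's r of 0.830 on the log2 scale over the 12 samples and 0.656 over the 8 strong ones, where the points share array and dye.

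*Col18a1*, which encodes the precursor of endostatin, behaved like the type I and III chains rather than like *Col4a1*. It was at 0.411, 0.217, 0.0928 and 0.185 in MRL/lpr, at 0.110, 0.108, 0.115 and 0.104 in Fn14ko and at 0.0711, 0.209, 0.0856 and 0.188 in MRL/+. In the strong channels the 2 MRL/lpr levels were the highest. Its log2 difference over all mice was 0.67 ± 0.48 (SE) against MRL/+ (limma, adjusted p = 0.560) and 0.86 ± 0.48 against Fn14ko (adjusted p = 0.227). The chains *Col4a3* to *Col4a6*, which replace the major chains in kidney, lung and some epithelia, were dimmer. *Col4a5* was at 0.0759 to 0.178 in MRL/lpr and 0.0326 to 0.0608 in Fn14ko, without overlap, and at 0.0289 to 0.148 in MRL/+. *Col4a6* was at 0.0554 to 0.478, 0.0295 to 0.0502 and 0.0365 to 0.139. *Col4a3* and *Col4a4* were at or under 0.0224 in all 8 strong channels, and a further *Col4a4* probe that carried outlier flags was left out of its level.

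Read against each other, the classes differed in how far MRL/lpr replicate 1 departed from the rest. On its array the ratio of replicate 1 to replicate 2 had a median of 3.14 over the 5 fibrillar genes measured in all strong channels (range 1.10 to 3.38) and of 1.32 over the 5 basement membrane genes (range 1.01 to 1.89). The median over 15208 genes was 0.976. Within the Fn14ko arrays the corresponding medians were 1.10 and 0.786 for the fibrillar genes and 0.913 and 1.11 for the basement membrane genes. For Fn14ko replicate 1 over 2 the fibrillar ratios ran from 0.826 to 1.21 and the basement membrane ratios from 0.733 to 1.12. For replicate 3 over 4 both ranges were wider, at 0.662 to 2.23 and 0.536 to 2.29. The ratio therefore exceeded 3 only for *Col1a1*, *Col1a2* and *Col3a1* of replicate 1. Such ratios within an array also contain the difference between the dyes.

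The class scores, which are mean log2 levels relative to the MRL/+ mean over the strong channels, gave the same order. Fibrillar scores were 1.86 and 0.72 in MRL/lpr replicates 1 and 2, 0.54, 0.45, 0.68 and 0.66 in Fn14ko, and 0.07 and -0.07 in MRL/+ replicates 1 and 3. Basement membrane scores were 1.24 and 0.79, then 0.12, 0.28, 0.31 and 0.18, then 0.08 and -0.08. Both MRL/lpr mice had the highest scores in both classes, and all Fn14ko mice lay above both MRL/+ mice. In MRL/lpr replicate 2, however, 3 of 6 fibrillar and 4 of 7 basement membrane levels lay at or below its negative-control 95th percentile (0.108). These counts were 1 and 2 in MRL/lpr replicate 1 and no higher in the other strong channels. The scores of MRL/lpr replicate 2 are thus partly bounded by background. Fibrillar minus basement membrane was 0.63 in MRL/lpr replicate 1 and -0.07 in replicate 2, 0.17 to 0.48 in Fn14ko, and -0.01 and 0.01 in MRL/+. Over all 12 mice the fibrillar score over 6 genes was 0.66 ± 0.68 in MRL/lpr, -0.10 ± 0.07 in Fn14ko and 0.00 ± 0.71 in MRL/+ (SD, n = 4), and the basement membrane score over 7 genes was 0.36 ± 0.57, -0.70 ± 0.09 and 0.00 ± 1.02. The wide spreads of MRL/lpr and MRL/+ are those of the groups that hold weak channels. No test is given for these scores, and in the strong channels only 2 MRL/lpr mice, both on 1 array, and 2 MRL/+ mice remain.

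**Figure D2:**
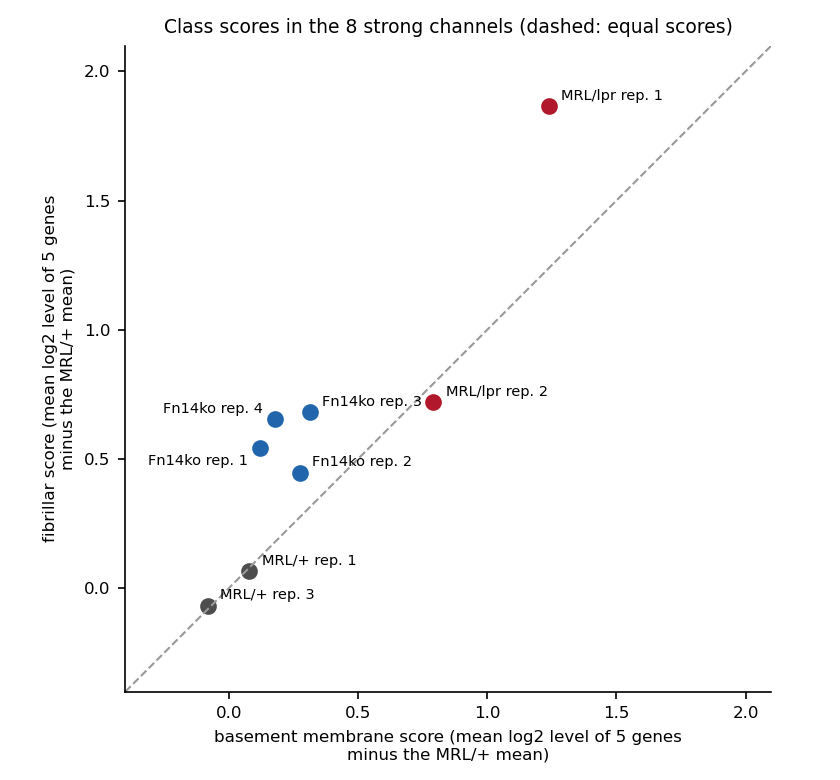
Fibrillar score against basement membrane score of each mouse in the 8 strong channels, each score being the mean log2 level of 5 genes minus the MRL/+ mean, with a dashed line where both are equal. MRL/lpr replicate 1 lies at 1.86 and 1.24, far above the 4 Fn14ko mice, whose fibrillar scores run from 0.45 to 0.68.

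Of the 24 collagens measured in all strong channels, MRL/lpr replicate 1 had the highest level of the 8 for 12, compared with 14% of the 15208 genes. Its level over the mean of the other 7 was 4.72 for *Col3a1*, 3.78 for *Col1a2*, 3.55 for *Col18a1*, 3.45 for *Col1a1* and 2.73 for *Col4a5*. *Col8a2*, a short-chain network collagen, had a ratio of 2.50, and *Col12a1*, which binds the surface of type I fibrils, 2.49. The remaining ratios ran from 0.593 for *Col19a1* to 1.88 for *Col20a1*. Over the strong channels *Col1a1* correlated with *Col1a2* (r = 0.97, n = 8), *Col1a2* with *Col3a1* (r = 0.932) and *Col1a1* with *Col3a1* (r = 0.905), all on the log2 scale. Without replicate 1 the same values over 7 samples were 0.885, 0.423 and 0.472, so those with *Col3a1* rested largely on that mouse.

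**Figure D3:**
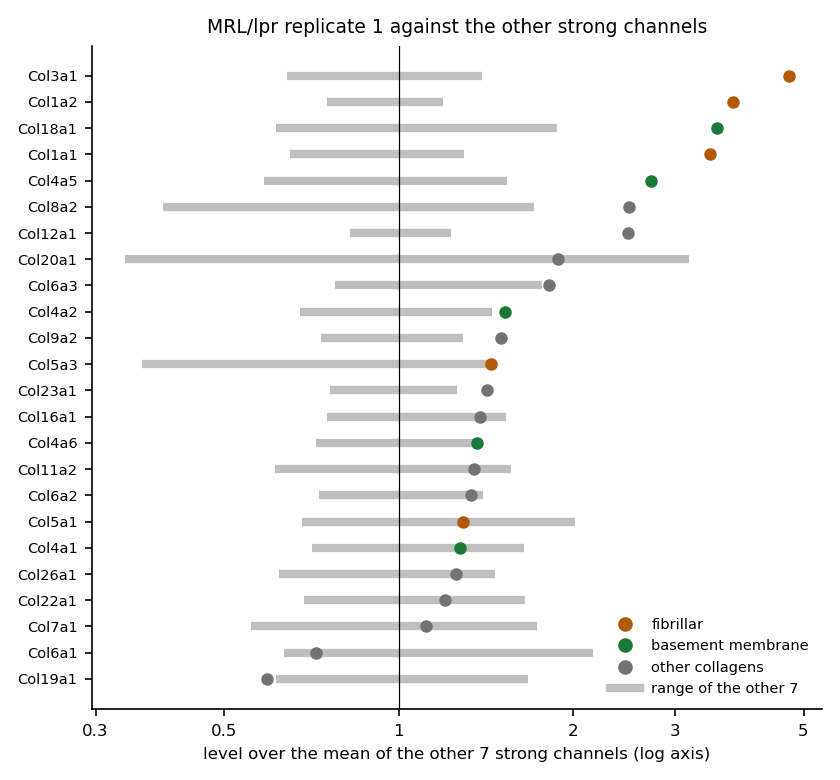
Level of each of 24 collagen genes in MRL/lpr replicate 1 over the mean of the other 7 strong channels, on a log axis, coloured by class, with grey bars for the range of those 7. *Col3a1*, *Col1a2*, *Col18a1* and *Col1a1* are between 3.45 and 4.72, whereas *Col6a1* and *Col19a1* are at 0.722 and 0.593.

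Markers of attached tissue were also high in the same mouse. Of 17 measured markers of meningeal and perivascular fibroblasts, 16 were highest in MRL/lpr replicate 1, with a median ratio to the other 7 strong channels of 3.38, and all 6 measured choroid plexus markers were, with a median ratio of 7.44. Brain endothelium was highest there for 1 of 15 genes, with a median ratio of 0.908, and mural cells for 5 of 11, with 1.69. Hippocampal neuron markers were highest there for 4 of 9, with a median ratio of 3.11. Of these 5 lists the endothelial one alone had a median ratio to the other 7 under 1. Over replicate 2 of the same array, the median ratio of replicate 1 was 2.35 for fibroblasts and 2.64 for choroid plexus. It was 1.11 for endothelium, 1.48 for mural cells and 1.15 for neurons, beside 0.976 over 15208 genes. *Ttr*, the abundant secreted protein of choroid plexus epithelium, was at 33.4, 10, 2.13 and 15.2 in MRL/lpr, at 0.297 to 4.61 in Fn14ko and at 0.754 to 1.5 in MRL/+. *Dcn*, a proteoglycan that binds collagen fibrils and marks meningeal fibroblasts, was at 2.84, 1.68, 1.43 and 1.40, at 0.467 to 0.732 and at 0.303 to 0.530. The part of these cells in the collagen levels was not tested.

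Over all 12 mice, 1 of the 5 marker lists separated MRL/lpr from both other groups. Summed levels of the 19 fibroblast markers ran from 11.7 to 29.6 in MRL/lpr, from 8.54 to 9.41 in Fn14ko and from 8.80 to 10 in MRL/+, so the 4 MRL/lpr sums were all above the rest. Those of MRL/lpr replicates 3 and 4, 11.7 and 18.9, came from the weak array. Negative controls there had 95th percentiles of 1.51 and 2.55 per spot, so the sums of these 2 mice are bounded by background in every list. For the 13 choroid plexus markers the sums ran from 11.1 to 57.7, from 7.15 to 12.3 and from 8.73 to 10.2. For the 16 endothelial markers they ran from 7.62 to 13.9, from 15.6 to 20.5 and from 12.6 to 19.7. The choroid plexus sums of MRL/lpr overlapped those of Fn14ko, and the endothelial ones overlapped those of MRL/+. The 13 mural cell markers summed to 4.66 to 16.2, 8.22 to 11.8 and 8.10 to 10.7, and the 12 neuron markers to 13.3 to 21.7, 10.6 to 15.3 and 11.5 to 16.4, with overlap between all groups. The fibrillar collagens summed to 0.793 to 3.82, 1.07 to 1.29 and 0.817 to 1.28, and the basement membrane ones to 1.24 to 1.98, 0.914 to 1.62 and 0.989 to 2.20, so neither class separated MRL/lpr from the others. No list had a defining marker at the floor in all 4 mice of a group.

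In the comparison of MRL/lpr with MRL/+, which asks how the lupus-prone mice differ from the congenic background, 0 of 44 collagens passed the adjusted threshold by limma, beside 2.6% of all genes (0.838% higher and 1.77% lower). At an unadjusted p under 0.05 there were 4 of 44 collagens (9.09%), beside 18.7% of all genes, and the methods' t-test called 0 at its unadjusted threshold, beside 7.77% of all genes. No collagen had groups without overlap, beside 1.84% of genes higher and 5.89% lower. The largest difference was *Col6a5* with 3.71 ± 1.33 (log2, SE, adjusted p = 0.143), and the lowest was *Col6a2* with -0.52 ± 0.46 (adjusted p = 0.698). The median log2 difference was 0.46 over the collagens, 0.62 over the fibrillar and 0.33 over the basement membrane members, beside 0.20 over all genes.

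In the comparison of MRL/lpr with Fn14ko, which asks what loss of the receptor changes in the lupus-prone mice, 3 of 44 collagens passed (6.82%), all higher in MRL/lpr, beside 6.09% of all genes (4.69% higher). They were *Col6a5*, *Col20a1* and *Col25a1*, and none belongs to the fibrillar or basement membrane class. Groups did not overlap for 11 of 44 (25%), all higher in MRL/lpr, beside 13.1% of all genes higher and 4.92% lower, and 14 of 44 (31.8%) had an unadjusted p under 0.05, beside 27.6%. The median log2 difference was 1.37 over the collagens and 1.36 over the basement membrane members, close to 1.33 over all genes, and 0.58 over the fibrillar ones. Taking the channel median over all probe spots instead moved the median of all genes to -0.10, that of the fibrillar members to -0.88 and that of the basement membrane members to -0.09, so the direction of both classes in this comparison depends on the scaling. On both scales the fibrillar median was below that of all genes and the basement membrane median was close to it. Without the weak array this turned, with medians of 0.93 over the fibrillar, 0.54 over the basement membrane members and 0.42 over the collagens, beside 0 over all genes, and the same medians were found without the 4 weak channels.

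*Col20a1*, a collagen that associates with fibrils, rose in MRL/lpr against Fn14ko by 2.16 ± 0.57 (log2, SE, limma, adjusted p = 0.0416). Its levels were 0.127, 0.215, 0.123 and 0.460 in MRL/lpr, 0.0229, 0.0423, 0.0603 and 0.0674 in Fn14ko and 0.0346, 0.275, 0.0316 and 0.232 in MRL/+. All MRL/lpr levels were above all Fn14ko levels, but those of replicates 3 and 4 were not well above background. Without the weak array the log2 difference was 1.89 ± 0.51 (adjusted p = 0.0105), and without the 4 weak channels the call was lost, with the same difference and an adjusted p of 0.0564. *Col25a1*, a transmembrane collagen of neurons whose shed ectodomain is found in amyloid plaques, rose by 2.56 ± 0.70 (adjusted p = 0.0476). It was at 0.0633, 0.0648, 0.185 and 0.341 in MRL/lpr, at 0.0244, 0.0237, 0.0142 and 0.0262 in Fn14ko and at 0.0248, 0.133, 0.0260 and 0.109 in MRL/+, and without the weak array its difference was 1.57 ± 0.65 (adjusted p = 0.152). Both calls were lost with the array as a random block, with which 0 of 44 collagens passed, beside 0.334% of all genes.

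*Col6a5*, a chain of the beaded-filament type VI collagen, rose by 5.38 ± 1.33 (log2, SE, limma, adjusted p = 0.0335) and lost the call without the weak array, at 2.42 ± 0.81 (adjusted p = 0.0508). It was at 0.0447, 0.0825, 2.83 and 4.66 in MRL/lpr, at 0.01, 0.01, 0.0111 and 0.0147 in Fn14ko and at 0.01, 0.147, 0.01 and 0.111 in MRL/+. The high levels were thus those of the weak array. Of its 2 probes, the one at chr9:105830400-105830459 (mm9, minus strand) was at 5.64 and 9.13 in MRL/lpr replicates 3 and 4 and at most 0.0189 in the 8 strong channels, whereas the other was at 0.0312 and 0.202 in those mice.

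Single probes of this kind were found for other collagens. A level above 0.5 in both MRL/lpr replicates 3 and 4 and below 0.5 in all strong channels was found for 7 of 69 collagen probes (10.1%), beside 7.19% of 38853 probes of all genes. Besides *Col6a5* they belonged to *Col23a1* (2.92 and 3.11 in replicates 3 and 4), *Col22a1* (1.85 and 2.61), *Col15a1* (1.67 and 1.89), *Col14a1* (1.45 and 1.58), *Col11a2* (0.698 and 1.47) and *Col4a6* (0.596 and 0.651). *Col11a2* has a single probe, and for the other 6 genes the remaining probes read at most 0.401 in these mice. Of the 19 collagens with more than 1 probe, the probes differed in sign for 8 in MRL/lpr against MRL/+, for 1 in MRL/lpr against Fn14ko and for 2 in Fn14ko against MRL/+.

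**Figure D4:**
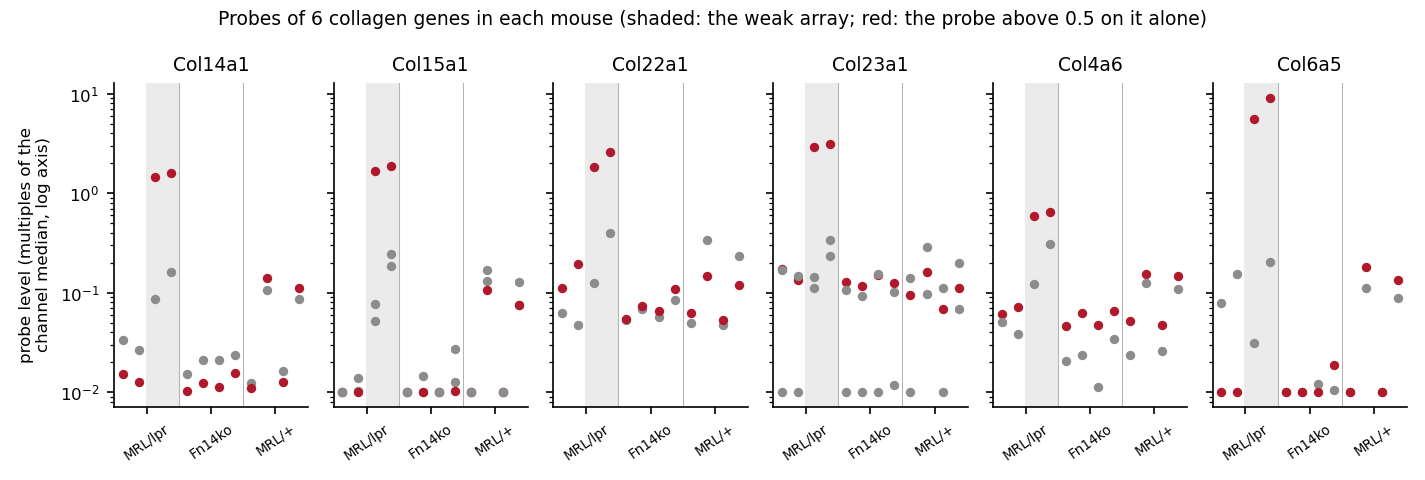
Level of the probes of 6 collagen genes in each of the 12 mice, ordered by replicate within phenotype, in multiples of the channel median on a log axis, with the weak array shaded and the probe above 0.5 on that array alone in red. For *Col6a5* the red probe reads 5.64 and 9.13 on the weak array and its partner 0.0312 and 0.202.

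In the comparison of Fn14ko with MRL/+, 0 of 44 collagens passed, beside 0.142% of all genes in either direction, and 2 of 44 (4.55%) had an unadjusted p under 0.05, beside 8.52%. The methods' t-test called 1 (2.27%) at its unadjusted threshold, beside 7.84% of all genes, and 0 after Benjamini-Hochberg adjustment, beside 4 genes in all. The 2 were the partner chains of type VI collagen, and they ran in opposite directions. *Col6a1* was at 0.539, 0.663, 1.66 and 0.682 in Fn14ko and at 0.582, 0.470, 0.486 and 0.297 in MRL/+, a log2 difference of 0.84 ± 0.36 (SE, adjusted p = 0.421 by limma). *Col6a2* was at 0.0670, 0.0708, 0.114 and 0.0723 in Fn14ko and at 0.128, 0.246, 0.124 and 0.196 in MRL/+, a log2 difference of -1.07 ± 0.46 (adjusted p = 0.421). *Col6a2* was the only collagen whose groups did not overlap, beside 8.39% of all genes lower and 2.25% higher without overlap, and its exact permutation p was 0.0286, the smallest that 4 against 4 mice can give. The median log2 difference was -0.85 over the collagens and -0.97 over all genes, and -0.05 over the fibrillar and -0.56 over the basement membrane members. With the channel median over all probe spots these were 0.06, -0.02, 0.87 and 0.36, so here too the sign depends on the scaling. The fibrillar median was the highest of the 4 under all 5 scalings and background corrections compared, whereas the basement membrane median fell below that of all collagens with Agilent's processed signal (-0.16 beside -0.13) and with the negative-control median subtracted (0.13 beside 0.14).

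**Figure D5:**
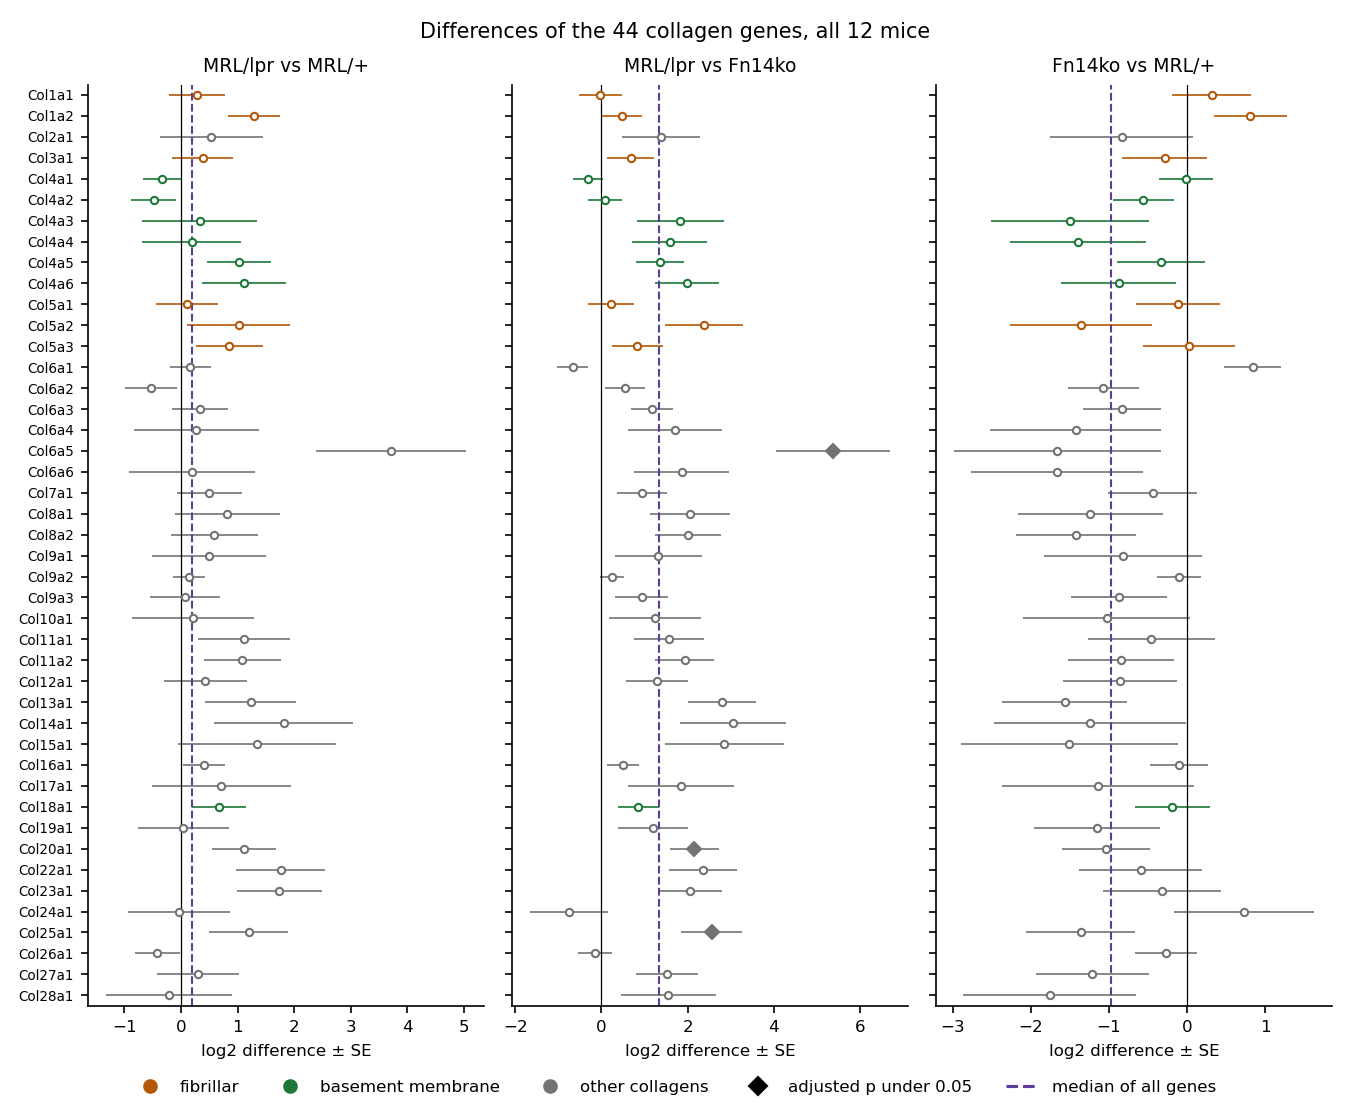
Log2 difference with its SE for each of the 44 collagen genes in the 3 comparisons over all 12 mice, coloured by class, with filled diamonds past an adjusted p of 0.05 and a dashed line at the median of all genes. *Col6a5*, *Col20a1* and *Col25a1* are past the threshold in MRL/lpr against Fn14ko at 5.38, 2.16 and 2.56, and no gene is in the other comparisons.

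Which collagens passed depended on the weak channels. Without the weak array, 3 collagens were higher in MRL/lpr than in MRL/+ (*Col1a2* by 1.84 ± 0.27, *Col18a1* by 1.26 ± 0.38 and *Col1a1* by 1.13 ± 0.33, log2 with SE), beside 3.82% of genes higher and 6.5% lower. Against Fn14ko 5 were higher (*Col20a1* by 1.89, *Col18a1* by 1.45, *Col3a1* by 1.38, *Col1a2* by 1.03 and *Col4a2* by 0.79) and *Col24a1* was lower with -2.39, beside 5.47% and 2.47%. In Fn14ko against MRL/+, *Col1a2* (0.81) and *Col6a1* (0.84) were higher and *Col6a2* (-1.07) was lower, beside 3.46% and 9.05%. Leaving out all 4 weak channels instead, 6 collagens were higher in MRL/lpr than in MRL/+ (*Col5a2*, *Col6a3*, *Col6a5*, *Col11a1*, *Col13a1* and *Col18a1*), beside 8.82% of genes higher and 4.11% lower. Then 6 were higher than in Fn14ko (*Col5a2*, *Col6a3*, *Col6a5*, *Col13a1*, *Col18a1* and *Col25a1*), beside 9.5%, and 0 passed between Fn14ko and MRL/+, beside 0.0405% higher and 0.429% lower. *Col18a1* was the only collagen past the threshold against both other groups under both choices. Only MRL/lpr replicates 1 and 2, which share an array, carry these calls.

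The 31 collagens outside both classes were mostly low, and 14 of them were measured in all strong channels. Among the 5 other fibrillar chains (*Col2a1*, *Col11a1*, *Col11a2*, *Col24a1* and *Col27a1*, several of them known from cartilage), 1 was so measured, and the median log2 differences were 0.54 in MRL/lpr against MRL/+, 1.52 in MRL/lpr against Fn14ko and -0.84 in Fn14ko against MRL/+. The 3 network-forming chains (*Col8a1*, *Col8a2* and *Col10a1*), of which 1 was measured, had medians of 0.59, 2.01 and -1.24. The 9 fibril-associated chains (*Col9a1* to *Col9a3*, *Col12a1*, *Col14a1*, *Col16a1*, *Col19a1*, *Col20a1* and *Col22a1*), of which 6 were measured, had 0.43, 1.29 and -0.86. Over all genes the medians were 0.20, 1.33 and -0.97. The 8 beaded-filament and anchoring chains (*Col6a1* to *Col6a6*, *Col7a1* and *Col28a1*), of which 4 were measured, had 0.24, 1.36 and -1.25. The 4 transmembrane chains (*Col13a1*, *Col17a1*, *Col23a1* and *Col25a1*), of which 1 was measured, had 1.21, 2.31 and -1.25, the furthest above all genes in both comparisons with MRL/lpr among the lists of over 1 gene. *Col15a1*, a proteoglycan of the basement membrane zone related to *Col18a1*, was at or under 0.0167 in every strong channel, and *Col26a1* was at 0.111 to 0.262 there.

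In MRL/lpr against Fn14ko, the transmembrane collagen *Col13a1* came nearest to the threshold, with 2.80 ± 0.80 (log2, SE, limma, adjusted p = 0.0537). It was well above background in MRL/lpr replicates 1 and 2 alone, at 0.0331 and 0.0823, and at 0.0571 and 0.226 in replicates 3 and 4, 0.01 to 0.0136 in Fn14ko and 0.01 to 0.112 in MRL/+. *Col24a1*, a minor fibrillar chain, had the lowest difference there, -0.76 ± 0.90. It was at 0.0340, 0.0769, 0.129 and 0.0734 in Fn14ko and at 0.01, 0.0181, 0.0710 and 0.235 in MRL/lpr, where the 2 higher levels are those of the weak array. *Col28a1*, which was well above background in no sample, had the lowest difference of Fn14ko against MRL/+, -1.76 ± 1.11. *Col9a2*, a fibril-associated collagen detected in most samples, ran from 0.313 to 0.669 in MRL/lpr, from 0.373 to 0.441 in Fn14ko and from 0.336 to 0.551 in MRL/+.

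Enzymes and chaperones that make and crosslink collagen mostly did not pass. Of 28 such genes, 0 passed in MRL/lpr against MRL/+, beside 2.6% of all genes, and in Fn14ko against MRL/+, beside 0.142%. In MRL/lpr against Fn14ko 1 was higher, beside 4.69% of all genes. It was *Pcolce2*, an enhancer of procollagen C-proteinase, at 1.93 ± 0.54 (log2, SE, limma, adjusted p = 0.0498). The list medians were 0.44, 1.35 and -0.64 in MRL/lpr against MRL/+, MRL/lpr against Fn14ko and Fn14ko against MRL/+. Without the weak array, 4 of 28 (*P4hb*, *Ppib*, *Pcolce* and *Sparc*) were higher in MRL/lpr than in MRL/+, beside 3.82% of all genes. Against Fn14ko 3 of 28 were higher, *Serpinh1* (the collagen chaperone HSP47), *Pcolce* and *Pcolce2*, beside 5.47%.

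Among the partners of type IV collagen in basement membranes, *Lama5* (the laminin alpha 5 chain) was higher in MRL/lpr, by 1.72 ± 0.36 against MRL/+ (log2, SE, limma, adjusted p = 0.0241) and 1.85 ± 0.36 against Fn14ko (adjusted p = 0.0151). *Lama3* (laminin alpha 3) was higher against Fn14ko by 1.93 ± 0.53 (adjusted p = 0.0491). No partner passed in Fn14ko against MRL/+, where *Hspg2*, the proteoglycan perlecan, had the lowest p with -1.13 ± 0.44 (adjusted p = 0.421). Of 10 collagen receptors and of 10 genes of collagen breakdown, 0 passed in each comparison. The shares of all genes were 2.6% in MRL/lpr against MRL/+, 6.09% in MRL/lpr against Fn14ko and 0.142% in Fn14ko against MRL/+. *Itga10*, an integrin subunit that binds collagen, had 1.66 ± 0.51 against MRL/+ (adjusted p = 0.0982), and *Timp2*, an inhibitor of metalloproteinases, had 1.35 ± 0.40 (adjusted p = 0.0899).

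The cell type lists gave these counts, beside 0.838% of all genes higher in MRL/lpr than in MRL/+ and 4.69% higher than in Fn14ko. Of 19 meningeal and perivascular fibroblast markers, 3 were higher in MRL/lpr than in MRL/+, with *Dcn* at 2.17 ± 0.27 (log2, SE, limma, adjusted p = 0.00116), *Slc6a20a*, a proline transporter of the meninges, at 1.77 ± 0.33 and *Ogn* at 3.24 ± 0.71, and 4 were higher than in Fn14ko. Choroid plexus markers were higher for 1 of 13 and 6 of 13, with *Ttr* at 3.33 ± 0.81 and 3.55 ± 0.81. Endothelial markers passed for 0 of 16 and 1 of 16, *Cdh5* (VE-cadherin) at 2.40 ± 0.54 against Fn14ko, and mural cell markers for 0 of 13 in both. Hippocampal neuron markers were higher for 6 of 12 in both comparisons, with *Lct* at 2.71 ± 0.28 and 3.19 ± 0.28. In Fn14ko against MRL/+ no marker of these lists passed. Markers of fibroblasts and choroid plexus were higher for more genes without the weak array, with 9 of 19 and 7 of 13 against MRL/+ and 11 of 19 and 10 of 13 against Fn14ko. Neuron markers were then higher for 6 of 12 and 8 of 12, mural cell markers for 3 of 13 in both and endothelial markers for 0 of 16 and 1 of 16. The share of all genes higher was 3.82% and 5.47%. In the same setting 2 of 16 endothelial markers (*Kdr* and *Eng*) were lower in MRL/lpr than in MRL/+, beside 6.5% of all genes. Against Fn14ko 1 of 13 mural cell markers was lower, beside 2.47%.

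Among 3335 genes compared over the 12 samples, those whose level was most like the mean fibrillar pattern were *Csf1* (Pearson's r = 0.935), *Ccdc28b* (0.874), *Riox2* (0.850), *Ms4a4c* (0.83) and *Relb* (0.825). For the basement membrane pattern they were *Clca3a1* (0.969), *Ms4a4c* (0.963), *Ndst1* (0.942), *Arid4a* (0.940) and *Sfxn2* (0.936). The samples share arrays and dyes, and both patterns contain the higher levels of dim genes in the weak channels, so these values are a description only.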

How the data were processed

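RNA labelled as hippocampal, from 12 mice in groups of 4, was measured on 6 arrays with a mouse in each colour. The authors scanned the arrays and read them with Agilent Feature Extraction 12.1.0.3. The deposited files give a linear intensity per spot and colour, with the colours not yet scaled to each other. From these, the median local background was subtracted from the mean foreground, every channel was scaled to its median over the 10877 spots valid in all 12 samples (foreground at least 2 times background, no outlier flag), signals under 1% of that median were set to it, and spots and then probes of a gene were averaged. No filter on dim spots was applied, so that every collagen stays in. The test was limma 3.58.1 (R 4.3.3) on log2 values (trend, dye as covariate, all 12 samples, Benjamini-Hochberg over 29608 genes, threshold 0.05), and single genes also with a two-sided exact permutation test of 4 against 4 mice. The test treats mice as independent although 2 share each array, and their consensus correlation was 0.571. The number of arrays limits the precision. The script was tested on simulated data.

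Probe positions are in mm9 coordinates and gene names are those of the array design. Promoters are RefSeq sequences on GRCm38.p6. The members and the gene lists were chosen with earlier results of these data known. Named are all fibrillar and basement membrane members, other collagens past the threshold, the highest and lowest of the other collagens in each comparison, up to 3 called genes of each list (otherwise the one with the smallest p), and the 5 genes most like each class pattern. A result under this rule, among the basement membrane partners, is not reported here. The other collagens and marker genes given with values were chosen after their values were seen. Python 3.11.15 with numpy 2.4.6, pandas 2.3.3, scipy 1.17.1 and matplotlib 3.10.9, and statmod 1.5.0 for random blocks, were used for other steps. Alternatives covered the spot filter, background correction, scaling, floor, dye, array and replicate blocks, array weights, probe choice, flags, the methods' heteroscedastic t-test and leaving out mice or channels. Subtraction of the negative-control median and leaving out the 4 weak channels were added after seeing the data.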

Additional observations from a re-analysis of the deposited data

Results flagged for a closer look

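Of 45 sets of 4 levels tested for a mouse far from the other 3 of its phenotype, 2 were marked, and chance marks about 1 in 20. *Col5a2* in Fn14ko replicate 2 stood apart, with a gap of 0.929 of the group's range, at a level of 0.0121 beside 0.01, 0.01 and 0.0101. *Col4a3* in Fn14ko replicate 4 stood apart, with a gap of 1 of the range, at 0.0147 beside 0.01 in the other 3 mice. In both sets the other mice were at or next to the floor of 0.01.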

How the results depend on the processing

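The count of collagens past the threshold depended on the processing. In MRL/lpr against MRL/+ it was 0, beside 2.6% of all genes. The count was 3 (6.82%) without the weak array, beside 10.3% of all genes, and 7 (15.9%) with Agilent's processed signal, beside 8.34%. With array weights it was 24 (54.5%), beside 57.9%, and with the negative-control median subtracted 1 (2.27%), beside 2.23%. Without the 4 weak channels 6 (13.6%) passed, beside 12.9%. Leaving out each mouse in turn gave 0 to 3, beside 0.763% to 13.3% of all genes. In MRL/lpr against Fn14ko it was 3, beside 6.09% of all genes. With only spots valid in all 12 samples, 7 collagens could be tested and the count was 0, beside 3.98% of the 8864 genes tested. Without the weak array it was 6 of 44 (13.6%), beside 7.94% of all genes. With normexp, loess and Aquantile it was 1 (2.27%), beside 2.6%, and with a floor at 5% of the channel median 0, beside 1.54%. The array as a random block gave 0, beside 0.334%, and no dye term gave 1 (2.27%), beside 2.85%. With array weights 35 (79.5%) passed, beside 84.5%, and without the 4 weak channels 6 (13.6%), beside 13.2%. There the methods' t-test called 1 (2.27%) unadjusted, beside 7.33% of all genes, and 0 after Benjamini-Hochberg, beside 0 genes in all. With their ratio threshold CUT it called 1 (2.27%), beside 2.93%. Leaving out each mouse gave 0 to 30, with 30 (68.2%) without MRL/lpr replicate 2, beside 69.1% of all genes, and 7 (15.9%) without MRL/lpr replicate 1, beside 19.7%. It gave 0 without MRL/lpr replicate 3, MRL/lpr replicate 4, Fn14ko replicate 1, 2 or 4, or MRL/+ replicate 4, beside 0.534% to 3.05%. In Fn14ko against MRL/+ it was 0, beside 0.142% of all genes. The count was 3 (6.82%) without the weak array, beside 12.5% of all genes, and 30 (68.2%) with array weights, beside 74.3%. The methods' t-test unadjusted called 1 (2.27%), beside 7.84%, and leaving out each mouse gave 0, beside 0.00338% to 0.76%. Array weights were 0.136 and 0.0855 for MRL/lpr replicates 1 and 2 and 10.2 for Fn14ko replicate 4. With a replicate block in place of dye, 1 collagen (2.27%) passed in MRL/lpr against Fn14ko (*Col6a5*), beside 5.45% of all genes. None passed in MRL/lpr against MRL/+, beside 3.26%, or in Fn14ko against MRL/+, beside 0.186%. Equal replicate numbers share a dye, their deviations correlated from -0.68 to 0.76, and within dye those of Fn14ko and MRL/+ correlated from -0.83 to -0.55, so the numbers were not taken to pair mice. The fibrillar shift, in log2, was 0.66 in MRL/lpr against MRL/+ and 1.85 with the processed signal (0.44 to 0.92 leaving out each mouse). Against Fn14ko it was 0.76, and -0.41 with normexp, -0.64 with the channel median over all spots and -0.54 with the negative controls subtracted (0.54 to 1.00). In Fn14ko against MRL/+ it was -0.10, and 0.81 for the spots valid in all samples (1 gene), 0.44 with normexp, 0.81 with the processed signal, 0.85 with the median over all spots, 1.60 with negative controls subtracted and 0.50 without the 4 weak channels (-0.32 to 0.16). The basement membrane shift was 0.36 (0.05 to 0.70), and 1.24 for the spots valid in all samples. Those spots held 1 gene of the class, *Col4a6*, by its probe above 0.5 on the weak array and below 0.5 in all strong channels. Against Fn14ko the basement membrane shift was 1.06 (0.79 to 1.24), and 1.88 for that probe. It was 0.33 with normexp, -0.29 with the median over all spots, 1.49 with outlier flags ignored and -0.0729 with negative controls subtracted. In Fn14ko against MRL/+ it was -0.70, and 0.0569 with normexp, 0.18 with the median over all spots, 0.45 with negative controls subtracted and 0.18 without the 4 weak channels (-1.01 to -0.35). The cause of these moves was not tested. *Col6a5*, *Col20a1* and *Col25a1* stayed higher in MRL/lpr than in Fn14ko in all 25 alternatives and fell short of the threshold in 13, 17 and 16 of them, with adjusted p up to 0.167, 0.245 and 0.245. Signal over background limits all levels on the weak array.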
